A study of Homo sapiens with 6 samples.

Results

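The genes described here were the E proteins and their inhibitors, 6 genes chosen by family membership and not by their measured values. They were TCF3, TCF4 and TCF12 for the E proteins and ID1, ID2 and ID3 for the ID (inhibitor of DNA binding) proteins. All 6 were found among 35410 listed genes, and all 6 were among the 15465 genes with enough counts to be tested. RNA was measured by MACE-Seq, which sequences the 3′ ends of polyadenylated transcripts, in SEM, an established KMT2A::AFF1 B cell precursor leukemia line labelled as proB cells. SEM::mock (3 libraries) carried an empty vector, and SEM::EGR3 (3 libraries) carried a doxycycline-inducible vector for the transcription factor EGR3. All 6 libraries came from cells given 1 µg/mL doxycycline for 48 h, so drug and induction time were shared by both lines. Each condition was represented by 1 transfected line. The labels name biological replicates, so p-values measure the spread between cultures of a line and not between independently made lines.

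E proteins are basic helix-loop-helix transcription factors that bind E-box DNA as dimers, with themselves, with each other or with tissue-restricted partners such as TAL1. TCF3 encodes E2A (the splice forms E12 and E47), TCF4 encodes E2-2 and TCF12 encodes HEB. E2A acts at the start of B-lineage specification, upstream of EBF1 and PAX5. ID proteins keep the helix-loop-helix domain but lack the basic region, so a dimer of an ID protein and an E protein does not bind DNA. ID genes are known targets of BMP and SMAD signalling, and in developing T cells EGR factors are known to act upstream of Id3. Transcript levels are given here, and neither protein nor dimers were measured.

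The libraries did not all carry the markers of their labelled cell type. EGR3 had 6 to 10 counts in the SEM::mock libraries and 4952 to 9768 in the SEM::EGR3 libraries, in the direction of the labels. Of 15 proB and B-lineage markers, 11 were at the detection limit of 3 counts or fewer in every SEM::mock library and 6 of these were at 0, EBF1, DNTT, RAG2, BLNK, BLK and MS4A1. The summed level of these 15 genes was 134 to 158 CPM (counts scaled to a common library size) in SEM::mock, nearly all of it CD24, against 541 to 569 CPM in SEM::EGR3. CD24 itself was lower in SEM::EGR3, at 144 against 23.5 CPM with a log2 fold change of -2.61. Of the 10 tested, 9 were higher, most of them from the detection limit in SEM::mock, against 36.5% over all tested genes. Of 12 KMT2A fusion target genes, 12 were higher in SEM::EGR3, where 36.5% of all tested genes were higher. Their summed level was 200 to 217 CPM in SEM::mock and 1577 to 1701 CPM in SEM::EGR3. HOXA7, HOXA9, PROM1 and BCL11A were at the detection limit in SEM::mock. FLT3 (0 to 4 counts) and HOXA5 (4 to 6 counts) were near it. These genes passed the count filter through the SEM::EGR3 libraries alone and could be called only as higher. Erythroid genes were counted in both lines, with a summed level over 16 markers of 5050 to 5408 CPM in SEM::mock and 6249 to 6491 CPM in SEM::EGR3. Of the 12 of these that were tested, 9 were lower in SEM::EGR3 and 3, the globin genes HBZ, HBA1 and HBA2, higher, with a median log2 fold change of -0.82. The shares over all tested genes were 32.0% lower and 36.5% higher. HBG2, a fetal globin gene that is nearly identical to HBG1 and may share reads with it, fell from 2343 to 949 CPM, 2.47-fold, with a log2 fold change of -1.30 and an adjusted p = 1.42e-17 (edgeR, quasi-likelihood test, Benjamini-Hochberg). CDKN2A had 0 counts in every SEM::mock library and 1127 to 2356 in SEM::EGR3, and MTAP had 0, 0 and 1 counts against 182 to 380. The remaining marker lists differed as well, with 14.6 to 15.2 against 20.8 to 21.7 CPM for 6 listed megakaryocyte markers, 351 to 367 against 229 to 231 CPM for 11 listed myeloid markers, 59.9 to 65.3 against 13.6 to 15.2 CPM for 10 T cell markers and 883 to 921 against 496 to 529 CPM for 10 fibroblast and epithelial markers. Genes of B-lineage and of erythroid identity were thus both counted in the SEM::EGR3 libraries, and cells that express both cannot be told apart from a mixture of cells in bulk RNA, so a level or share given for SEM::EGR3 may be an average over unlike cells. The marker differences moved with EGR3, and their part in the results was not tested. In such bulk libraries, fewer cells of a type and less RNA per cell cannot be told apart.

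Promoter windows are shown for the 3 ID genes, because they rose together, and for TCF3, because it and ID2 held the consensus letters of an EGR site. Each window spans 300 bases, 250 before and 50 after the transcription start, from RefSeq (GRCh38.p14), read 5′ to 3′ on the strand of the gene. Capitals mark matches on either strand to 3 motifs. These were the EGR site GCGNGGGCG, the E-box CANNTG and the GC box GGGCGG, and EGR sites and GC boxes may overlap. Over 35116 windows of all genes, 9.43% held the EGR site, 68.7% an E-box and 45.0% a GC box.
ID1: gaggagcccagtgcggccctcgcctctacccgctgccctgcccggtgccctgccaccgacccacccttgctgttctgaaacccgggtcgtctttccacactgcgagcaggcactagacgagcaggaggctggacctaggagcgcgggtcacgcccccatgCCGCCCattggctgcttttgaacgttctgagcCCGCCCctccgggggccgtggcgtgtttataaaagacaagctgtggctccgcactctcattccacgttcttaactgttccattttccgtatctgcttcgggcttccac
ID2: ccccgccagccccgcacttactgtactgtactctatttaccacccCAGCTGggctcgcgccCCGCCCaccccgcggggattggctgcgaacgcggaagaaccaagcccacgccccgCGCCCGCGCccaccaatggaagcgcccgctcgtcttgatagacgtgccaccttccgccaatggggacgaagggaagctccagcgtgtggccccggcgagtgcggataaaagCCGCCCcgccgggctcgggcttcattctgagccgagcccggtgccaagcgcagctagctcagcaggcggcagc
ID3: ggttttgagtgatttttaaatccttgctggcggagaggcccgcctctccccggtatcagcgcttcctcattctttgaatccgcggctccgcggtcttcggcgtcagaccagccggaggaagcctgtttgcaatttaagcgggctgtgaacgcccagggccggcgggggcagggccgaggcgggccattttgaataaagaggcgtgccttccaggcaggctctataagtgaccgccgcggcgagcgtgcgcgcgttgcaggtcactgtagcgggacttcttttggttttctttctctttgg
TCF3: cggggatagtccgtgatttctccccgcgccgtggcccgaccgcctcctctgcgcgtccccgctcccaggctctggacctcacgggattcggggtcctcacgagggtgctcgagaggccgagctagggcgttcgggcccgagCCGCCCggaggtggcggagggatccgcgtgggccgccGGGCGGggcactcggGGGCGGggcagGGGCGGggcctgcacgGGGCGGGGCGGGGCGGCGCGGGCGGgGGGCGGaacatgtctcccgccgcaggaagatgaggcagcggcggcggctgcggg
The ID1 window (chr20:31605039-31605338, plus strand) held 2 GC boxes. The ID2 window (chr2:8681806-8682105, plus strand) held 1 EGR site starting 134 bases before the transcription start, 1 E-box starting 205 bases before it and 2 GC boxes. The ID3 window (chr1:23559452-23559751, minus strand) held none of these letters, and the TCF3 window (chr19:1652566-1652865, minus strand) held 1 EGR site starting 15 bases before the start, within a run of 9 GC boxes. TCF4 and TCF12 have several annotated starts, and of 10 TCF4 windows 0 held the EGR site and 7 an E-box, whereas of 5 TCF12 windows 0 held the EGR site and 2 an E-box. A match is a description of letters and not evidence of binding, and the lack of one says only that these letters are not in the window.

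All 6 genes differed between the lines past the threshold of 0.05 on the Benjamini-Hochberg adjusted p of the edgeR quasi-likelihood fit, as did 68.5% of all tested genes. Of the 6, 5 were higher in SEM::EGR3, where 36.5% of tested genes were higher, and TCF4 alone was lower, where 32.0% of tested genes were lower. None of the 6 had overlapping libraries between the lines, which held for 70.1% of tested genes. Passing the threshold therefore did not set the family apart from other genes, and the sizes of the changes are what differed among its members. The median absolute log2 fold change over all tested genes was 0.46. ID2 and ID3 exceeded it clearly, TCF4 exceeded it in the lower direction, and TCF3, TCF12 and ID1 lay near it.

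**Figure D1:**
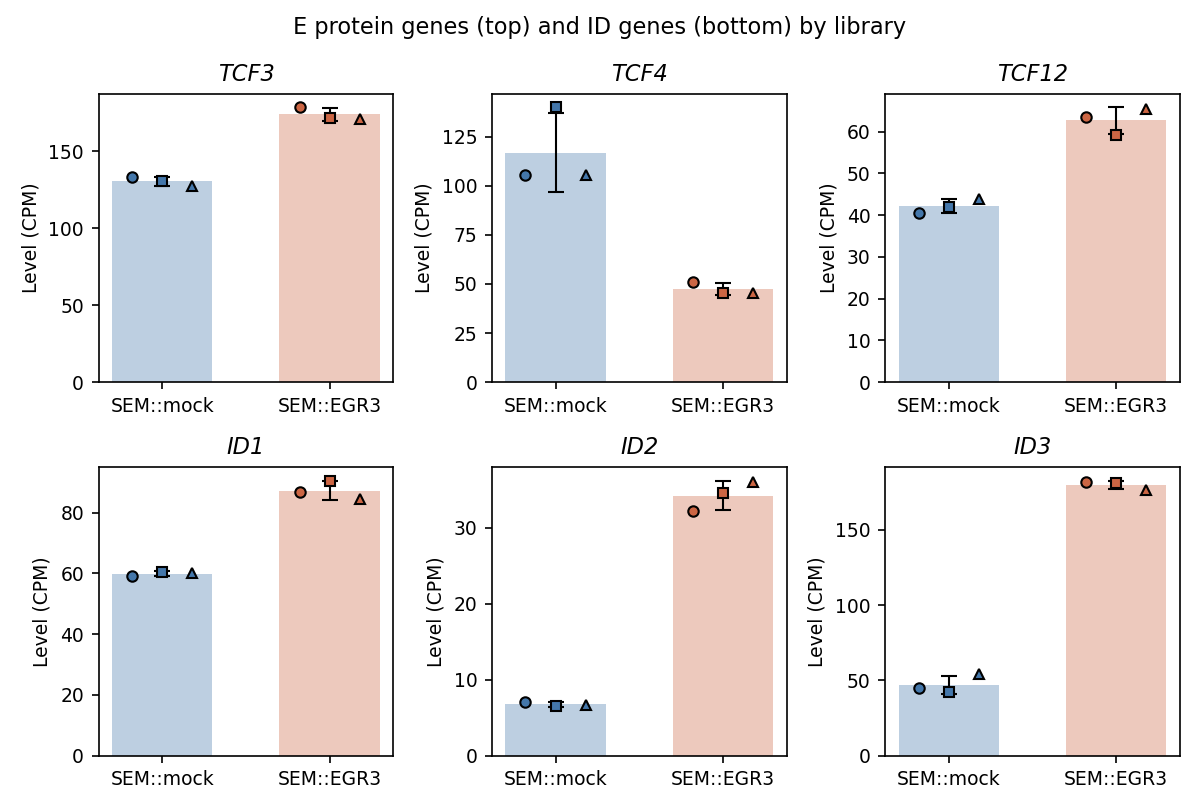
Level of each of the 6 genes in CPM, in 3 SEM::mock and 3 SEM::EGR3 libraries; points are libraries (circle, square and triangle for replicates 1, 2 and 3), bars are means and error bars are SD. TCF4 is the only gene with lower SEM::EGR3 points, ID2 and ID3 show the widest separation, and the scale of each panel is its own.

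TCF3, on chromosome 19 (chr19:1609290-1652605, GRCh38, minus strand), encodes the E protein with the best known role in early B-cell development. Its level was 133, 130.5 and 128 CPM in SEM::mock and 179, 172 and 171 CPM in SEM::EGR3, from 651 to 2769 counts per library. The lowest SEM::EGR3 library lay well above the highest SEM::mock library. The mean rose from 131 ± 2.88 (SD, n = 3) to 174 ± 4.09 CPM (SD, n = 3), 1.33-fold. The log2 fold change was 0.42 (SE 0.06, 95% interval 0.30 to 0.53), with an adjusted p = 3.64e-07 (edgeR, quasi-likelihood test, Benjamini-Hochberg), and 69.7% of tested genes had a lower log2 fold change. The count covers the gene as a whole, and E12 and E47 were not separated.

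TCF12, on chromosome 15 (chr15:56918623-57299281, GRCh38, plus strand), encodes HEB, which pairs with E2A in lymphoid cells. Its level was 40.6, 42.0 and 43.9 CPM in SEM::mock and 63.5, 59.3 and 65.4 CPM in SEM::EGR3. The libraries of a line lay close together, and the lines did not overlap. The mean rose from 42.2 ± 1.65 to 62.7 ± 3.15 CPM (SD, n = 3 each), 1.49-fold. The log2 fold change was 0.58 (SE 0.07, 95% interval 0.43 to 0.73), with an adjusted p = 1.62e-07 (edgeR, quasi-likelihood test, Benjamini-Hochberg). TCF3 and TCF12 thus moved in the same direction, with intervals that overlapped.

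TCF4 ran against both. It lies on chromosome 18 (chr18:55222331-55664787, GRCh38, minus strand), spans 442457 bp with 88 annotated transcript starts, and encodes E2-2, an E protein known for its role in plasmacytoid dendritic cells. Its level was 105, 140 and 105 CPM in SEM::mock and 50.8, 45.4 and 45.6 CPM in SEM::EGR3. SEM::mock replicate 2 was high for its line, and all SEM::EGR3 libraries lay under all SEM::mock libraries. The mean fell from 117 ± 20.0 to 47.3 ± 3.07 CPM (SD, n = 3 each), 2.47-fold lower. The log2 fold change was -1.30 (SE 0.09, 95% interval -1.48 to -1.12), with an adjusted p = 2.08e-12 (edgeR, quasi-likelihood test, Benjamini-Hochberg), and 94.7% of tested genes had a higher log2 fold change. Without SEM::mock replicate 2 the log2 fold change was -1.16. Which of its transcripts ended lower was not resolved by counts per gene.

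The 3 ID genes all rose, to very different degrees. ID1, on chromosome 20 (chr20:31605283-31606515, GRCh38, plus strand), is a compact gene with 1 annotated transcript end and a classic target of BMP signalling. Its level was 59.0, 60.6 and 60.0 CPM in SEM::mock and 86.8, 90.5 and 84.6 CPM in SEM::EGR3. The SEM::mock libraries were nearly level, and every SEM::EGR3 library lay above them. The mean rose from 59.9 ± 0.813 to 87.3 ± 3.02 CPM (SD, n = 3 each), 1.46-fold. The log2 fold change was 0.54 (SE 0.06, 95% interval 0.41 to 0.67), with an adjusted p = 6.11e-08 (edgeR, quasi-likelihood test, Benjamini-Hochberg), a change of the size seen for TCF3 and TCF12.

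ID2, on chromosome 2 (chr2:8678845-8684453, GRCh38, plus strand), encodes the inhibitor needed for innate lymphoid and natural killer cells and restrains B-lineage entry when present in excess. It was the least abundant member in both lines, with 7.07, 6.53 and 6.67 CPM in SEM::mock (34 to 40 counts) and 32.2, 34.6 and 36.0 CPM in SEM::EGR3 (257 to 499 counts). The SEM::mock libraries were all low, and the lines were far apart. The mean rose from 6.76 ± 0.279 to 34.3 ± 1.94 CPM (SD, n = 3 each), 5.07-fold. The log2 fold change was 2.33 (SE 0.12, 95% interval 2.08 to 2.58), with an adjusted p = 1.19e-14 (edgeR, quasi-likelihood test, Benjamini-Hochberg), and 91.9% of tested genes had a lower log2 fold change. An antisense gene, ID2-AS1, overlaps ID2, with counts of 7, 7 and 4 in the SEM::mock libraries and of 41, 17 and 24 in the SEM::EGR3 libraries. Whether the counting used strand is not given in the sources used here, so reads of ID2 and ID2-AS1 may not be fully separated.

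ID3, on chromosome 1 (chr1:23557918-23559794, GRCh38, minus strand), encodes the inhibitor that is induced by antigen receptor signals in lymphocytes. Its level was 44.9, 42.0 and 53.9 CPM in SEM::mock and 181.7, 181.2 and 176.6 CPM in SEM::EGR3. SEM::mock replicate 3 was the highest of its line, and the SEM::EGR3 libraries agreed closely. The mean rose from 47.0 ± 6.21 to 179.8 ± 2.80 CPM (SD, n = 3 each), 3.83-fold. The log2 fold change was 1.94 (SE 0.07, 95% interval 1.80 to 2.09), with an adjusted p = 1.35e-17 (edgeR, quasi-likelihood test, Benjamini-Hochberg), and 90.6% of tested genes had a lower log2 fold change. In SEM::EGR3 it stood at the level of TCF3 on the CPM scale. The fourth family gene, ID4, was not a member of the set and had 0 counts in 5 libraries and 1 count in SEM::EGR3 replicate 3, so it was not tested.

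**Figure D2:**
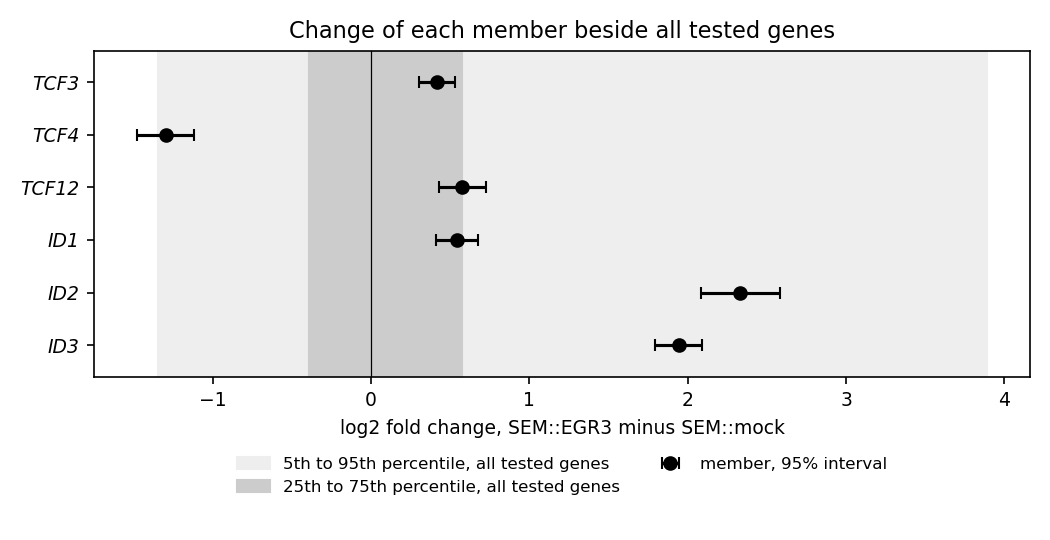
Log2 fold change of each gene, SEM::EGR3 minus SEM::mock, with its 95% interval (points and bars), over the range of all 15465 tested genes (shaded). ID2 (2.33) and ID3 (1.94) lie far right of the middle range and TCF4 (-1.30) far left of it, whereas TCF3, TCF12 and ID1 lie at its upper edge.

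The balance of E proteins to inhibitors was described per library, with no test, since it is a score over genes chosen with earlier results of these data known. Tags of 3′ ends are not scaled by transcript length and genes can differ in yield. The ratio of the pools therefore has no absolute meaning. A yield that is constant per gene cancels when the lines are compared by the mean log2 CPM of the genes. It does not cancel in summed CPM or in a ratio of sums, since the makeup of the pools differed between the lines. The summed level of the 3 E protein genes was 279, 313 and 277 CPM in SEM::mock and 293, 277 and 282 CPM in SEM::EGR3. The pools of the lines overlapped, with means of 289.6 ± 19.9 and 283.9 ± 8.30 CPM (SD, n = 3 each). The lower TCF4 was offset in this sum by the higher TCF3 and TCF12. The summed level of the 3 ID genes was 111, 109 and 121 CPM in SEM::mock and 300.6, 306 and 297 CPM in SEM::EGR3. Its mean was 2.65-fold higher, going from 113.6 ± 6.13 to 301.4 ± 4.61 CPM (SD, n = 3 each), without overlap.

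The ratio of the E protein pool to the ID pool was 2.52, 2.86 and 2.30 in SEM::mock and 0.974, 0.903 and 0.950 in SEM::EGR3. Its mean went from 2.56 ± 0.285 to 0.942 ± 0.0363 (SD, n = 3 each). On the CPM scale the E protein pool exceeded the ID pool in each SEM::mock library and was slightly under it in each SEM::EGR3 library. Which pool is the larger has no absolute meaning, since genes can differ in yield. On the log2 scale, with each gene weighted equally, the balance (mean log2 CPM of the E protein genes minus that of the ID genes) was 1.68 ± 0.13 in SEM::mock and -0.02 ± 0.08 in SEM::EGR3 (SD, n = 3 each). The difference between the lines was -1.70. Of this, the E protein side gave -0.10, with overlapping libraries, and the ID side was 1.59 higher, without overlap. On this scale nearly all of the shift lay on the side of the inhibitors. It depended on the members counted, since the difference was -1.10 without TCF4, -1.34 without ID2 and -2.22 without ID1, and it remained under 0 in each case.

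**Figure D3:**
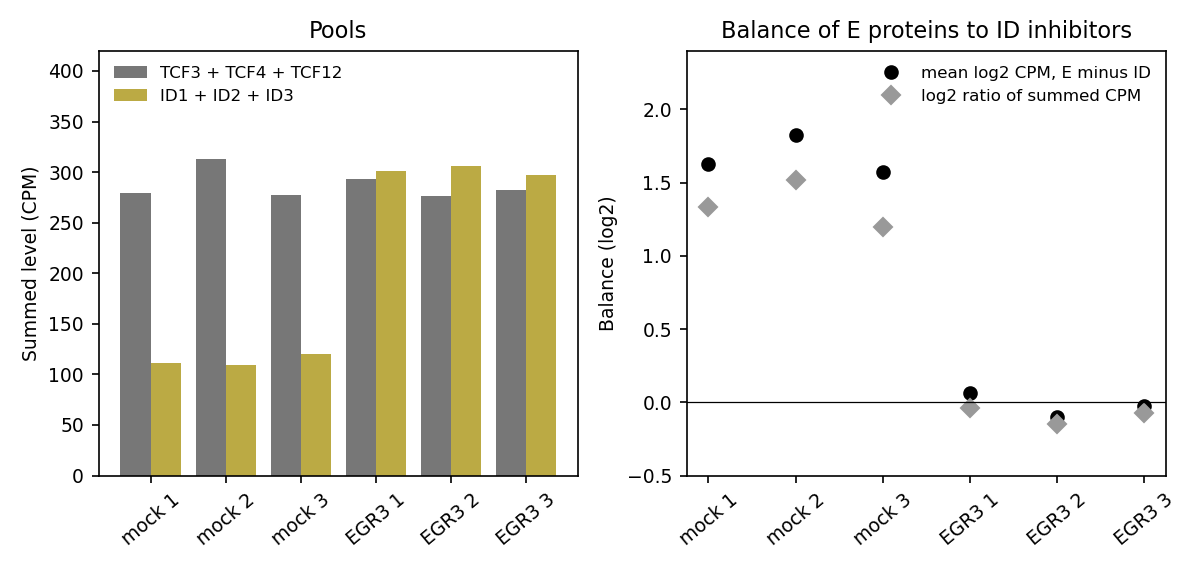
Left, summed CPM of the 3 E protein genes and the 3 ID genes in each library; right, the balance on the log2 scale by 2 measures. The E protein pool stays between 277 and 313 CPM in all 6 libraries while the ID pool goes from 109 to 121 CPM in SEM::mock to 297 to 306 CPM in SEM::EGR3, and both measures drop to about 0.

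Both pools also changed in makeup. TCF3 made up 45.2% ± 3.10 of the summed E protein CPM in SEM::mock and 61.3% ± 0.790 in SEM::EGR3 (SD, n = 3 each). TCF4 went from 40.2% ± 4.01 to 16.6% ± 0.624, and TCF12 from 14.6% ± 1.21 to 22.1% ± 0.948. In SEM::mock replicate 2, TCF4 was the larger share with 44.8% against 41.7% for TCF3, whereas TCF3 was the larger in the other libraries. Among the inhibitors, ID1 went from 52.8% ± 2.90 to 29.0% ± 0.557 of the summed ID CPM, although its own level rose. ID3 went from 41.2% ± 3.18 to 59.7% ± 0.679, and ID2 from 5.96% ± 0.421 to 11.4% ± 0.712. The leading pair on the CPM scale was thus TCF3 and ID1 in SEM::mock and TCF3 and ID3 in SEM::EGR3. None of these shares overlapped between the lines, and the shares of a pool add up to the whole and are not independent of each other.

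**Figure D4:**
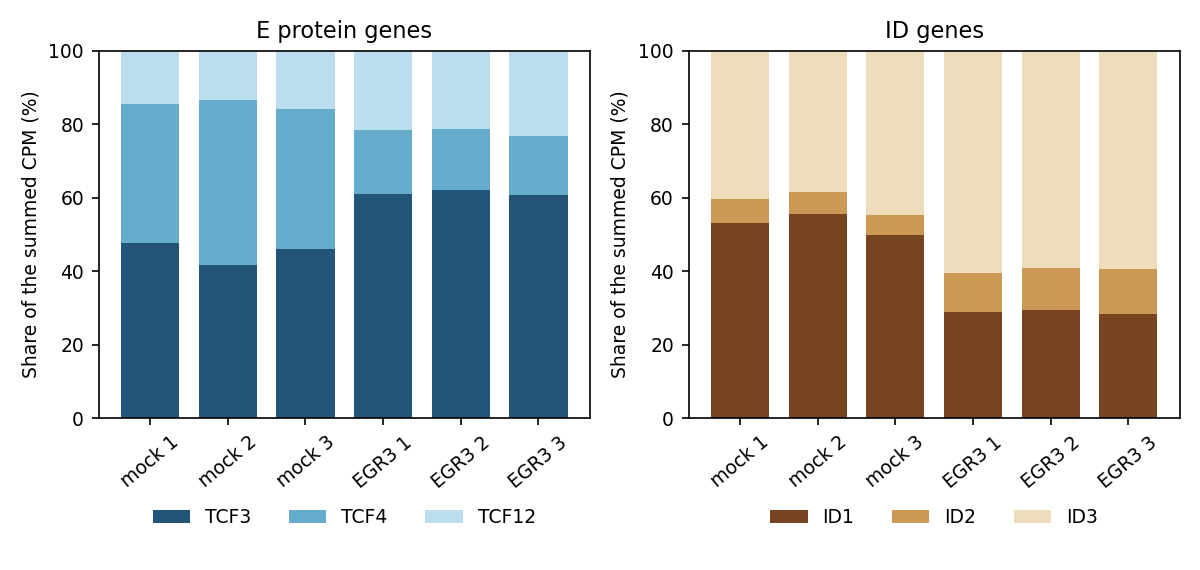
Share of each gene in the summed CPM of the E protein genes (left) and of the ID genes (right), in percent, for each of the 6 libraries. TCF4 shrinks from 37.7% to 44.8% in SEM::mock to 16.2% to 17.4% in SEM::EGR3, and ID3 passes ID1 as the largest ID share.

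By pairs, the ratio of an E protein gene to an inhibitor gene was lower in SEM::EGR3 without overlap between the lines in 8 of 9 pairs. The pairs share their genes and are not independent, so this restates the changes of the members. Among single tested genes, 70.1% had no overlap between the lines. The largest shift was in TCF4 to ID2, from 17.4 ± 3.54 to 1.39 ± 0.169 on the CPM scale (SD, n = 3 each), a log2 difference of -3.64. TCF4 to ID3 was next, with 2.54 ± 0.710 and 0.263 ± 0.0151. TCF3 to ID3, the most abundant members of each family in SEM::EGR3, went from 2.81 ± 0.393 to 0.967 ± 0.0173, a log2 difference of -1.53. TCF3 to ID2 shifted by -1.93, TCF4 to ID1 by -1.84 and TCF12 to ID2 by -1.77 on the log2 scale. By contrast TCF3 to ID1 went only from 2.18 ± 0.0708 to 1.99 ± 0.0843, and TCF12 to ID1 overlapped between the lines with 0.705 ± 0.0238 and 0.720 ± 0.0604. The balance against ID1 thus moved little for TCF3 and TCF12, and the balance against ID2 and ID3 moved for all 3 E protein genes.

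E proteins act with partners, and the list of helix-loop-helix partners and LMO complex genes held 10 listed genes of 11, all tested. Of these 2 were higher, 7 lower and 1 was not past the threshold, with a median log2 fold change of -0.36 against 0.03 for all tested genes. LMO2, a bridging protein of the complex with TAL1 and GATA factors, had the largest decrease, from 110 to 32.0 CPM with a log2 fold change of -1.77. LMO4, a related LIM-only protein, had the largest increase, from 133 to 469 CPM with a log2 fold change of 1.82. All 10 were counted in both lines, and none was at the detection limit. TAL2, called lower, was near it, with 9 to 14 counts in SEM::mock and 2 to 13 in SEM::EGR3. It passed the count filter through its counts in the SEM::mock libraries, so its lower call is no support for a direction. Over all tested genes 36.5% were higher and 32.0% lower. GATA1 and TAL1 are also erythroid genes, and of 12 tested erythroid markers 9 were lower and 3 higher.

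Of 7 coregulators that E proteins recruit or that bind them, acetyltransferases and ETO family corepressors, 3 were higher, 1 lower and 3 did not pass the threshold, with a median log2 fold change of 0.17, where 68.5% of all tested genes passed. Of the ETO family genes, RUNX1T1 rose from 22.3 to 51.9 CPM (log2 fold change 1.23), CBFA2T3 fell from 95.7 to 36.0 CPM (log2 fold change -1.40) and CBFA2T2 did not pass the threshold at 14.7 and 16.4 CPM (log2 fold change 0.16). The acetyltransferase gene EP300 had a log2 fold change of 0.17 and did not pass the threshold. Of 7 genes for the turnover of ID and E proteins, 6 were tested and 3 were higher, 2 lower and 1 not past the threshold, with a median of 0.14, against 36.5% higher and 32.0% lower over all tested genes. WDR48, a cofactor of the deubiquitinase USP1 that stabilises ID proteins, had the largest increase (0.47) and COPS5 the largest decrease (-0.59). USP1 itself had a log2 fold change of 0.13 and did not pass. The lower call of SKP2, a ubiquitin ligase subunit named after its values were seen, was lost without SEM::mock replicate 1, SEM::EGR3 replicate 1 or SEM::EGR3 replicate 3. It was also lost with DESeq2, without normalization factors, without a filter, with a minimum of 10 counts per library and with the replicate block, and each of these left 1 lower gene in the turnover list.

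The BMP and TGF-β to SMAD pathway, which feeds into ID gene transcription, held 22 genes, of which 20 were tested, 11 were higher, 7 lower and 2 not past the threshold, with a median log2 fold change of 0.37. Of the 11, the ligand genes BMP4, BMP6 and BMP7 were at the detection limit in SEM::mock, and SMAD9 was near it with 1 to 4 counts. These genes passed the count filter through the SEM::EGR3 libraries alone and could be called only as higher. When at least 10 counts per library were required, 7 genes were higher. Over all tested genes 36.5% were higher and 32.0% lower. BMP4 was at 0 counts in SEM::mock and at 25 to 53 counts in SEM::EGR3, at least 5.97-fold higher against a floor of 3 counts per library. ACVRL1, a type I receptor gene, had the largest decrease, from 3.62 to 1.22 CPM with a log2 fold change of -1.52. It had 9 to 29 counts in SEM::mock and 8 to 23 in SEM::EGR3. It passed the count filter through its counts in the SEM::mock libraries, so its lower call is no support for a direction. Among the SMAD genes that transmit BMP signals, SMAD1 was higher (0.35), SMAD5 lower (-0.62) and SMAD9, with 1 to 4 counts in SEM::mock, higher at 103 to 224 counts. These SMAD genes were chosen for naming after their values were seen. The inhibitory SMAD7 had a log2 fold change of 0.03 and did not pass. The list moved in both directions, and BMP4 stayed low in level at 3.23 CPM.

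Of 9 listed genes for other helix-loop-helix repressors of the HES, HEY and BHLHE families, 7 were tested, with 3 higher, 3 lower and 1 not past the threshold and a median of -0.31, where 36.5% of all tested genes were higher and 32.0% lower. BHLHE40 had the largest decrease, from 168 to 55.3 CPM with a log2 fold change of -1.60. HES2 went from 0 counts in SEM::mock to 14 to 45 counts, at least 4.16-fold higher, and passed the count filter through the SEM::EGR3 libraries alone. HEY2, with 2 to 11 counts in SEM::mock and 53 to 121 in SEM::EGR3, went from 0.981 to 7.47 CPM, 7.62-fold, with a log2 fold change of 2.86. It too passed the count filter through its counts in the SEM::EGR3 libraries. When at least 10 counts per library were required, 1 gene of this list was higher.

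**Figure D5:**
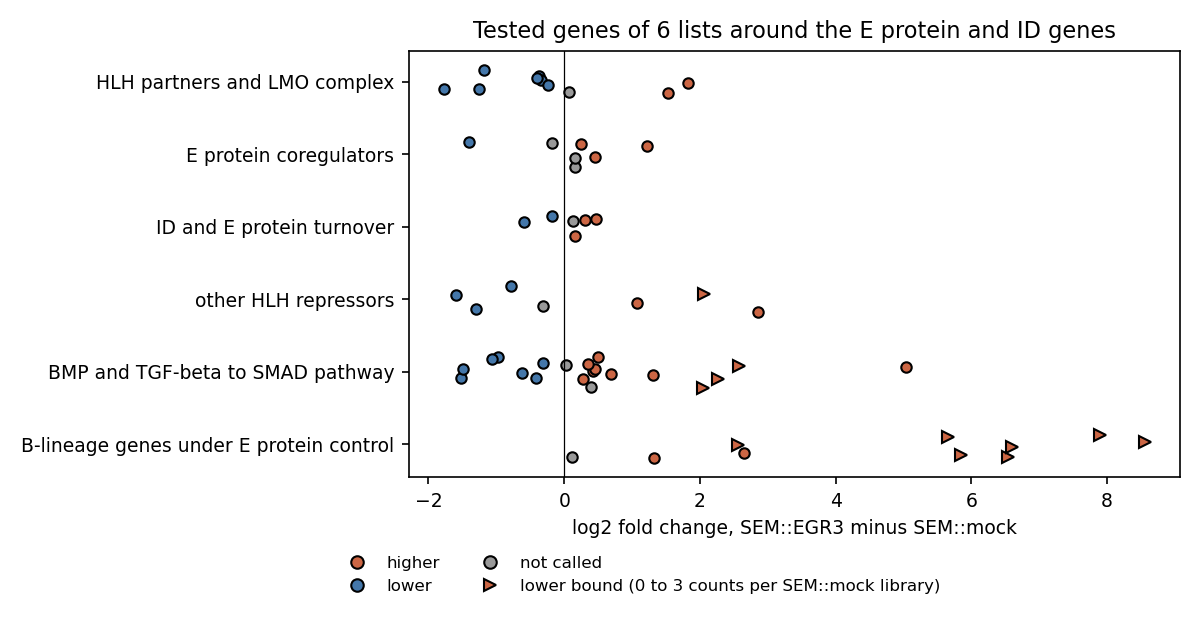
Log2 fold change, SEM::EGR3 minus SEM::mock, of the tested genes of 6 lists around the E protein and ID genes; each point is a gene, coloured by its call, and arrows are lower bounds for genes at 0 to 3 counts in each SEM::mock library. The first 5 lists move in both directions, and the B-lineage list lies to the right, mostly as lower bounds.

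B-lineage genes known to lie under E protein control were counted as well. Of 14, 11 were at the detection limit in every SEM::mock library, and 10 were tested, of which 9 were higher and 1, FOXO1, did not pass the threshold with a log2 fold change of 0.12. Most of the 9 were at the detection limit in SEM::mock, and RAG1 (5 to 7 counts) and CD79B (4 to 7 counts) were near it. All 9 passed the count filter through the SEM::EGR3 libraries alone, so this count is no support for a direction. EBF1, which starts the B-lineage programme with E2A, was not counted in SEM::mock (0 counts) and had a level at least 237-fold higher in SEM::EGR3. PAX5, the B-lineage commitment factor, was at least 376-fold higher. The pre-B cell receptor chain gene IGLL1 was at least 93.3-fold higher and the receptor signalling chain gene CD79A at least 96.5-fold higher. POU2AF1, a coactivator of octamer factors, was at least 57.7-fold higher, CXCR4 at least 50.3-fold and IL7R at least 5.93-fold. VPREB1 was near the limit in both lines with 0 to 1 and 5 to 8 counts. RAG2, DNTT and BLNK were at 3 counts or fewer in all libraries. The 9 genes called higher were so in the line in which the ID pool was higher and the ratio of E proteins to inhibitors lower. Their direction was fixed by the count filter, so it says nothing about that ratio. Many of the list are also markers of the labelled cell type, most of which were at the detection limit in SEM::mock, and a change along the lineage and a difference of the cells cannot be told apart here.

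By pattern over the 6 libraries (root mean square difference of log2 CPM centred on each gene's mean, among 10143 tested genes with a mean of at least 10 CPM), the genes most like each member were as follows. UXT (0.0166) and ESYT2 (0.0209) were most like TCF3, and POU2F1 (0.0242) and MARCKSL1 (0.0268) most like TCF12. IRF2BPL (0.0795) and GAS8 (0.0934) were most like TCF4, and IRF2BPL too had its highest CPM in SEM::mock replicate 2. PSAP (0.0195) and MED27 (0.0220) were most like ID1, CABLES2 (0.0682) and DMBX1 (0.0784) most like ID2, and SLC30A1 (0.0749) and CTIF (0.0787) most like ID3. In a comparison in which 68.5% of genes changed, the likeness rests mainly on the difference between the lines.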

How the data were processed

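MACE-Seq counts were analysed for 3 SEM::mock and 3 SEM::EGR3 libraries, grouped by their labels; the headings spell the gene ERG3, read as the EGR3 line because no other line is named. Raw counts of each gene were deposited as whole numbers. The authors added CPM values (headed as TPM, without a length term) and size-factor-scaled signal values, and neither was tested. Their own fold changes, p-values and group means were not used. The submitters' processing notes name bcl2fastq, Bowtie2, HTSeq and GRCh38; versions, annotation and strand setting are not given in the sources used here. Columns of per-sample values left unused numbered 0.

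Listed counts summed to 5286115 to 6181388 per SEM::mock and 7293092 to 15106018 per SEM::EGR3 library, 73.6% to 75.8% of the totals behind the deposited CPM. Where 3 counts or fewer were seen in every library of a line, folds are lower bounds against 3 counts per library, for counting error only. Counts were fitted in R 4.3.3 with edgeR 4.0.16 (filterByExpr, TMM, glmQLFit, glmQLFTest; threshold adjusted p 0.05, Benjamini-Hochberg over 15465 genes). The SE is the absolute log2 fold change over the square root of F. CPM values use TMM-scaled library sizes, with a prior count of 2 on the log2 scale. The fit was tested on simulated data in which few genes changed, equally many up and down. In the real data 68.5% of tested genes passed the threshold, so that run did not test the scaling under so broad a change. DESeq2 1.42.0 and other filters, scalings and left-out libraries were alternatives. Gene positions are from GENCODE (GRCh38), where 34339 of the 35410 identifiers (97.0%) matched; promoter windows are from RefSeq. Named were the 6 genes and ID4, the largest increase and decrease of each list, B-lineage or partner genes at the detection limit, the 2 genes most like each member, and EGR3, CDKN2A and MTAP; EP300, CBFA2T2, HEY2, BMP6, BMP7, USP1, SKP2, SMAD1, SMAD5, SMAD7, SMAD9, FOXO1, HBG2, HBZ, HBA1 and HBA2 were chosen after their values were seen. The KMT2A fusion targets named, CD24, RAG1, CD79B and TAL2 were also named after their values were seen. Members and lists were chosen with earlier results of these data known.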

Additional observations from a re-analysis of the deposited data

How the results depend on the processing

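The direction of the 6 genes held under every alternative run, and their calls held under all but 1. A minimum of 1 on the absolute log2 fold change removed TCF3 (0.42), TCF12 (0.58) and ID1 (0.54), and left 2581 higher and 1315 lower genes among all tested, 3 lower partner genes, 1 higher coregulator, 5 higher and 3 lower BMP and SMAD genes, and 0 higher and 0 lower turnover genes. With a minimum of 10 counts per library, higher genes numbered 0 in the B-lineage list, 7 in the BMP and SMAD list and 1 among other repressors, and fewer genes were tested by construction. Lower turnover genes numbered 1 with DESeq2, without normalization factors, without a filter, with a minimum of 10 counts per library and with the replicate block, and 1 to 2 with a library left out; SKP2 was the gene lost. Leaving out each library gave -1.75 to -1.62 for the balance, 0.38 to 0.43 for TCF3, -1.39 to -1.16 for TCF4, 0.53 to 0.61 for TCF12, 0.51 to 0.56 for ID1, 2.29 to 2.39 for ID2 and 1.86 to 2.03 for ID3.

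The balance differed by -1.70, and by -1.44 as the ratio of summed CPM, -1.34 with ID4, -1.95 without TCF3, -1.10 without TCF4, -2.03 without TCF12, -2.22 without ID1, -1.34 without ID2 and -1.52 without ID3. Its size is set by which genes are counted, since the genes changed unequally. ID4 had 0 or 1 counts in every library, so its log2 CPM rests on the prior count. The value with ID4 thus averages a nearly constant floor into the ID side. Without normalization factors the median of all genes shifted by 0.08.

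Replicate numbers did not pair the samples (correlations of -0.11, -0.06 and -0.03 between same-numbered libraries). With the replicate block the log2 fold changes were 0.41 for TCF3, -1.29 for TCF4, 0.57 for TCF12, 0.54 for ID1, 2.34 for ID2 and 1.94 for ID3, and no call of these changed. Of 338 alternative values of the main results, 308 kept direction and side of the threshold or stayed near their value. Of the others, 27 moved away from their value, 3 lost their call and 0 reversed. Many of the 338 are counts of genes, which by definition can stay or move but never reverse. Of 407 values for single named genes, 399 kept direction and side of the threshold, 8 lost their call and 0 reversed.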
